A study of Mus musculus with 2 samples.

Results

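The 10 genes described here encode the 5 subunits of the transcription factor NF-kB (Nfkb1, Nfkb2, Rel, Rela and Relb) and 5 of its inhibitors (Nfkbia, Nfkbib, Nfkbie, Nfkbiz and Tnfaip3). They were chosen by gene symbol, all 10 were found, and they are 10 of 23961 symbols in the deposited tables. RNA was sequenced from sorted haematopoietic stem cells, the bone marrow cells from which every kind of blood cell is replaced, of untreated C57BL/6 mice kept under an even light and dark cycle. One library came from mice labelled Per2def (deficient in the circadian clock repressor Per2) and 1 from mice labelled Per2wt (wild type). The nature of the Per2 allele, the markers used for sorting, the number, age and sex of the animals behind each library and the hour of collection are all not stated in the labels. Each genotype has a single library, which allows neither a replicate check nor a test, and each difference below is between these libraries and not between the genotypes. Levels are in FPKM (fragment counts corrected for the length of the transcript and the size of the library), as deposited, and can be compared between genes because they are set per length. Differences are on the log2(FPKM + 1) scale, the Per2def value less the Per2wt value, which understates the change of low genes, and ratios are plain ratios of FPKM.

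NF-kB acts as dimers of its subunits. Rela, Rel and Relb carry a domain that activates transcription, whereas Nfkb1 and Nfkb2 encode long precursors that are cut to DNA-binding subunits without such a domain. The classical inhibitors encoded by Nfkbia, Nfkbib and Nfkbie hold dimers in the cytoplasm until a kinase complex marks the inhibitors for breakdown. The RNA level of a subunit therefore says how much message is there, not how much factor is active in the nucleus. Several of the inhibitor genes, Nfkbia and Tnfaip3 among them, are themselves switched on by NF-kB and so form feedback loops. In mice, loss of Rela or of Tnfaip3 in blood cells is known to impair stem cell function.

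The libraries were checked against their labels before the members were compared. Per2 stood at 6.16 FPKM in the library labelled Per2def and at 1.96 FPKM in the library labelled Per2wt, a ratio of 3.13. That is higher in the library labelled as deficient. Because the Per2 allele is not stated, the level of Per2 message that the label implies is unknown. Whether the libraries were exchanged cannot be told from the files. An exchange would turn every direction below, and each is therefore given between the libraries as labelled. Of 13 stem cell markers 10 reached 1 FPKM in at least 1 library, with a summed level over all 13 of 113 FPKM in Per2def and 116 FPKM in Per2wt. Of the 10, 4 were higher in Per2def and 6 lower, against 62% higher among all genes. One of the lower markers reached 1 FPKM only in Per2wt. Kit, the stem cell factor receptor, stood at 43.6 FPKM in Per2def and 42.7 FPKM in Per2wt, and Meis1, a stem cell homeobox factor, at 20.4 and 20.7 FPKM in Per2def and Per2wt, while Hlf, a stem cell factor gene named outside the rule, was lower at 15.8 FPKM in Per2def and 20.3 FPKM in Per2wt (−0.34). Slamf1, Fgd5 and Hoxb5 were under 1 FPKM in both. The 5 multipotent progenitor markers, which stem cell sorts may also hold, summed to 247 FPKM in Per2def and 250.4 FPKM in Per2wt. Of these 3 were higher and 2 lower in Per2def, near the 62% higher among all genes at 1 FPKM in either library. Cd34 stood at 83.9 FPKM in Per2def and 90.5 FPKM in Per2wt, and Sox4 at 58.4 FPKM in Per2def and 57.8 FPKM in Per2wt. Named outside the rule, Cd48 stood at 22.6 FPKM in Per2def and 16.0 FPKM in Per2wt. Flt3, also named outside the rule, was above Kit, at 51.4 FPKM in Per2def and 48.8 FPKM in Per2wt. Among genes between 0 and 0.5 FPKM in both libraries the modal ratio of the Per2def value to the Per2wt value was 0.804, as when the Per2def library is 1.24 times as deep. Absolute depth is unknown, so no counting interval is attached to any value.

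NF-kB subunit and inhibitor RNA differed little between the libraries. On the log2(FPKM + 1) scale 9 of the 10 members stood higher in Per2def and 1 lower, against 62% higher and 38% lower among all 11121 genes that reached 1 FPKM in either library. The share of all genes above 0 was 50.8% after median of ratios scaling, where Rela, Nfkbiz and Nfkbib were the lower members and the other 7 stayed higher. No member passed 1.5-fold on this scale in either direction, against 2.61% of all genes higher and 1.7% lower by that much, and none passed 2-fold, against 1.25% higher and 0.998% lower. The members' differences ran from −0.26 to 0.36 with a median of 0.10, and the median over all 11121 genes was 0.05. Under median of ratios scaling these medians were 0.054 for the members and 0.0031 for all genes. Relb reached 1 FPKM only in Per2def, so its direction among genes at the floor was set by the floor. The other 9 members reached it in both libraries.

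**Figure D1:**
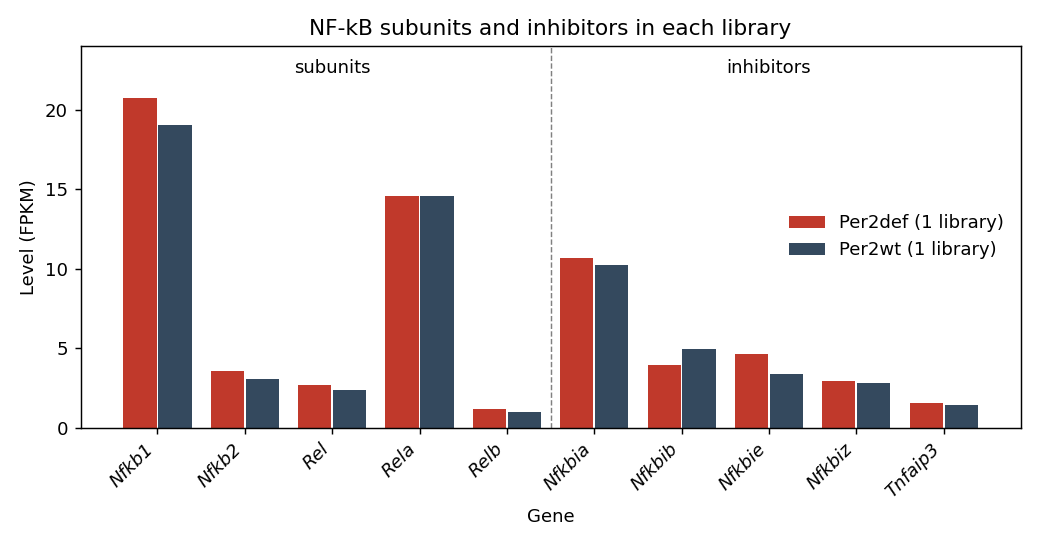
Level in FPKM of each NF-kB subunit and inhibitor gene, with 1 bar for the Per2def library and 1 for the Per2wt library, and no error bars because there is 1 library of each. Nfkb1, Rela and Nfkbia were the most abundant in both, and Nfkbib was the member that stood lower in Per2def, at 3.95 against 4.93 FPKM.

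Among the subunits, Nfkb1 and Rela made up most of the message. Nfkb1, whose precursor p105 is cut to the p50 subunit, stood at 20.7 FPKM in Per2def and 19.0 FPKM in Per2wt, a difference of 0.12 that was 0.065 under median of ratios scaling. It lies on the minus strand of chromosome 3, 135584655 to 135691547 (GRCm38), and was the highest of the 10 members in both libraries. Its level exceeded that of 84.8% of the measured genes in Per2def and of 83.9% in Per2wt.

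Rela encodes p65, the activating partner of p50 in the most studied NF-kB dimer. It stood at 14.58 FPKM in Per2def and 14.57 FPKM in Per2wt, a difference of 0.0015. Of the 11121 genes, 99.4% differed by more than Rela between the libraries. The sign of so small a difference follows the scaling, and it was negative, between −0.05 and −0.0054, under median of ratios, upper quartile and fixed total scaling. The gene (chromosome 19, 5637483 to 5648130, plus strand, GRCm38) ranked next after Nfkb1 in both libraries.

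The other subunits stood far lower. Rel encodes c-Rel, the activating subunit best known from lymphocytes, and was at 2.67 FPKM in Per2def and 2.36 FPKM in Per2wt, a difference of 0.13. Nfkb2, whose precursor p100 both holds Relb in the cytoplasm and yields the p52 subunit, was at 3.52 FPKM in Per2def and 3.06 FPKM in Per2wt, a difference of 0.16. Relb, the partner of p52 in the alternative NF-kB pathway, was the lowest member, at 1.16 FPKM in Per2def and 0.963 FPKM in Per2wt, a difference of 0.14. In Per2def 4.67% of the measured genes stood below it, and in Per2wt 3.63%. The Relb difference was 0.25 with a pseudocount of 0.1 FPKM, since the value of 1 FPKM added before taking the logarithm is about as large as the gene's own level. On GRCm38 Rel lies on chromosome 11 (23736847 to 23770970, minus strand), Nfkb2 on chromosome 19 (46304320 to 46312385, plus strand) and Relb on chromosome 7 (19606217 to 19629438, minus strand). Nfkb2 shares up to 501 exon bases with AC114539.1 and up to 299 with Psd, both on the other strand. AC114539.1 is not among the symbols used and so has no level here. Psd stood at 0.749 FPKM in Per2def and 0.283 FPKM in Per2wt, and the part of that overlap in the Nfkb2 value was not tested.

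The make-up of the subunit message was close to the same in both libraries. The 5 subunits summed to 42.7 FPKM in Per2def and 39.99 FPKM in Per2wt, a ratio of 1.07. Nfkb1 gave 48.6% of that sum in Per2def and 47.6% in Per2wt, and Rela gave 34.2% in Per2def and 36.4% in Per2wt. Rel, Nfkb2 and Relb shared the rest, with Relb at 2.72% in Per2def and 2.41% in Per2wt. Such shares do not depend on how a library is scaled. There were 12.5 Rela per Relb in Per2def and 15.1 in Per2wt, and 1.42 Nfkb1 per Rela in Per2def and 1.31 in Per2wt, as ratios of FPKM.

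**Figure D2:**
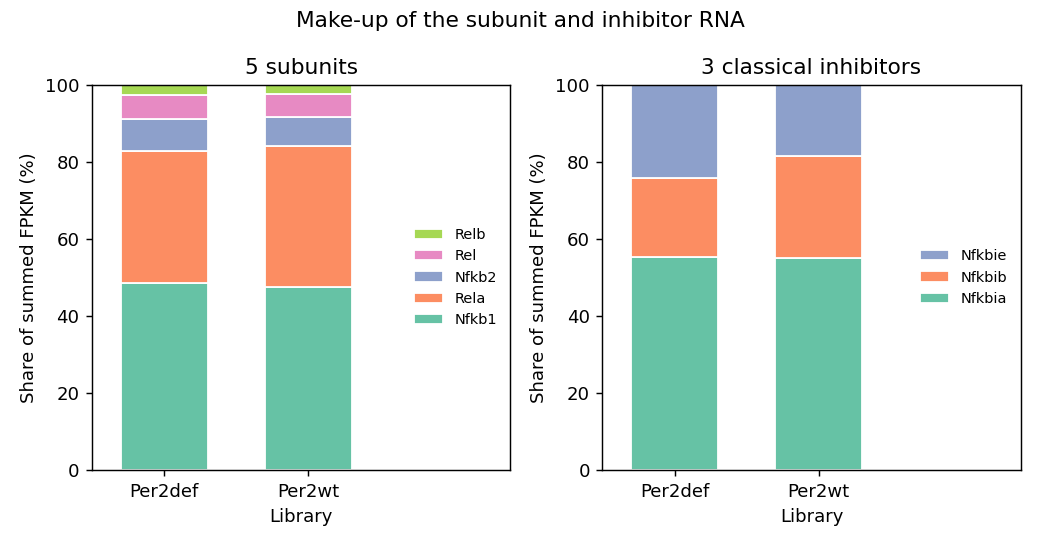
Share in percent of the summed FPKM of the 5 subunits (left) and of Nfkbia, Nfkbib and Nfkbie (right), with 1 stacked bar per library. The subunit shares are nearly level between the bars, whereas the share of Nfkbie was 24.1% in Per2def against 18.3% in Per2wt and that of Nfkbib 20.5% against 26.6%.

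The inhibitors held the members that differed most, Nfkbie and Nfkbib, and these went opposite ways. Nfkbie encodes the classical inhibitor IkB epsilon, and stood at 4.65 FPKM in Per2def and 3.40 FPKM in Per2wt, a ratio of 1.37 and a difference of 0.36. A total of 1124 genes, 10.1% of the 11121, differed by more. Nfkbib, which encodes IkB beta, stood at 3.95 FPKM in Per2def and 4.93 FPKM in Per2wt, a difference of −0.26, and 18.8% of genes differed by more. Both kept their direction under every scaling, pseudocount and row choice tried.

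As a result Nfkbie stood above Nfkbib in Per2def and below it in Per2wt. That was the one change in the order of the 10 members, which otherwise ran Nfkb1, Rela, Nfkbia, then Nfkb2, Nfkbiz, Rel, Tnfaip3 and Relb in both libraries. There were 1.18 Nfkbie per Nfkbib in Per2def and 0.69 in Per2wt, as ratios of FPKM, so that this ratio was 1.71 times as high in Per2def. The pair was picked out after its values had been seen, and the difference was not tested. Nfkbib (chromosome 7, 28758251 to 28767512, minus strand, GRCm38) shares up to 42 exon bases with Sirt2 and up to 314 with Ccer2, both on the other strand. Ccer2 is not among the symbols used and so has no level here. Sirt2 stood at 12.2 FPKM in Per2def and 11.3 FPKM in Per2wt, and the part of such overlap in the Nfkbib value was not tested, since the strand setting of the counting is not given. No overlapping exon was found for Nfkbie (chromosome 17, 45555703 to 45563169, plus strand).

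Nfkbia encodes IkB alpha, which NF-kB rapidly replaces after a stimulus, and was the most abundant inhibitor. It lies on chromosome 12, 55489410 to 55492647, on the minus strand (GRCm38). It stood at 10.7 FPKM in Per2def and 10.2 FPKM in Per2wt, a difference of 0.06, and 73.1% of genes differed by more. That difference was 0.011 under median of ratios and 0.028 under upper quartile scaling. Nfkbia gave 55.4% of the summed message of the 3 classical inhibitors in Per2def and 55.1% in Per2wt. The ratio of Nfkbia to Rela was 0.733 in Per2def and 0.70 in Per2wt. The 3 classical inhibitors together stood at 0.452 of the summed subunits in Per2def and at 0.463 in Per2wt. The ratio of the one sum to the other was thus 0.975 times as high in Per2def, while Nfkbie and Nfkbib differed in opposite directions.

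The remaining inhibitors, Nfkbiz (chromosome 16, 55811375 to 55838899, minus strand) and Tnfaip3 (chromosome 10, 19000910 to 19015657, minus strand), act elsewhere in the pathway. Nfkbiz encodes IkB zeta, a nuclear protein that binds p50 and also helps to switch on a subset of inflammatory genes. It stood at 2.91 FPKM in Per2def and 2.83 FPKM in Per2wt, a difference of 0.03 that became −0.0091 under median of ratios scaling. Tnfaip3 encodes A20, an enzyme that edits ubiquitin chains on signalling proteins upstream of the kinases. It stood at 1.56 FPKM in Per2def and 1.43 FPKM in Per2wt, a difference of 0.08 that was 0.042 under median of ratios scaling, and 66.9% of genes differed by more.

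The members were read against genes of similar level, because low genes scatter more. Among 4021 genes with a mean of 1 to 5 FPKM, small and predicted RNAs left out, the middle 95% of differences ran from −0.39 to 0.52. All 7 members at that level lay inside, Nfkbie and Nfkbib included, and 9.48% of these genes lay farther from 0 than Nfkbie. Among 4348 genes with a mean of 5 to 20 FPKM the middle 95% ran from −0.33 to 0.42, and Nfkb1, Rela and Nfkbia lay inside. This spread is across genes in 1 pair of libraries and is not a replicate error.

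**Figure D3:**
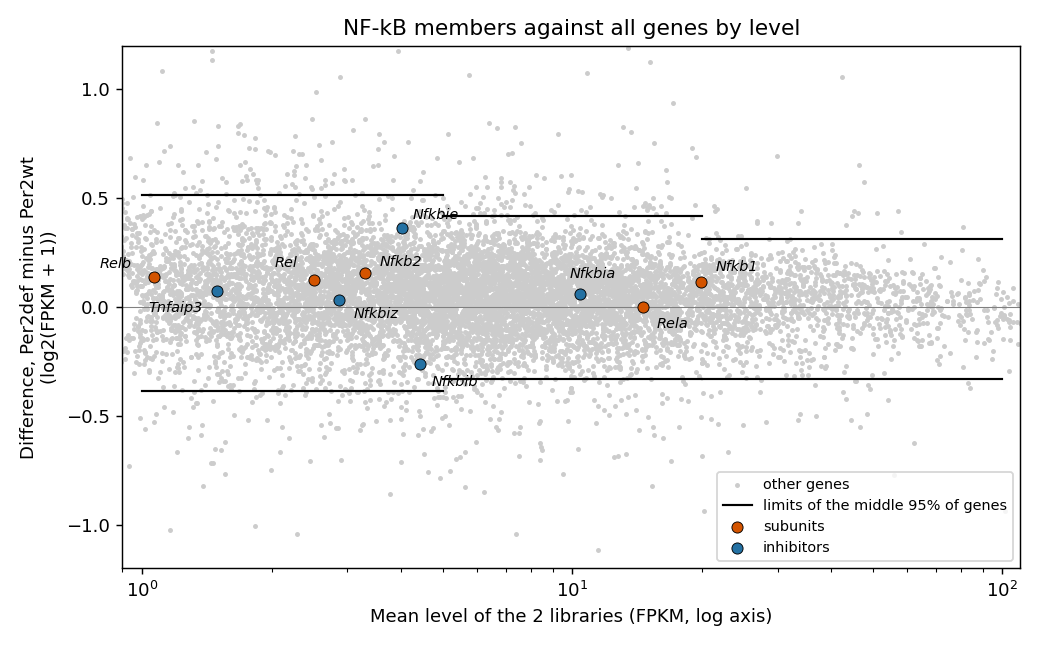
Difference in log2(FPKM + 1), Per2def minus Per2wt, against the mean level of both libraries in FPKM on a log axis, with small and predicted RNAs left out. Each grey point is a gene, coloured points are the NF-kB members, and black lines mark the middle 95% of genes in 3 ranges of level. All 10 members lie between the lines, with Nfkbie at 0.36 and Nfkbib at −0.26 the farthest from 0.

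Sequence before the start sites was examined for the kappaB motif, the 10-base consensus that NF-kB dimers bind, searched on both strands in the 250 bases before each RefSeq start site (GRCm38.p6). The table held 10 such windows for 7 of the members, all but Nfkb1, Relb and Nfkbiz. A match was found in 7 of these 10 windows, belonging to 5 genes (Nfkb2, Rel, Nfkbia, Nfkbie and Tnfaip3), and 7.25% of all 32851 windows held one. Windows of 1 gene can overlap and are not independent. No window of Rela or Nfkbib held a match. For both genes the GENCODE start differs from the RefSeq start used. The Nfkbib window lies inside the GENCODE span of the gene, and the Rela window runs past the GENCODE start. Sequence before the GENCODE start was thus not searched for Nfkbib, and only in part for Rela. The limit also holds for genes with a match. All windows of Nfkb2 lie inside its GENCODE span, as do those of Tnfaip3 but for a few bases of 1 window. The matches of Nfkb2 and Tnfaip3 thus lie within the annotated span and not before the GENCODE start. The stretches below are shown because Nfkbie and Nfkbib are the members that differed most, with Nfkbia as the most abundant inhibitor and Rel as a subunit with a match. They run from 130 to 11 bases before the start site, or from 90 for Nfkbib, whose window runs into a Sirt2 exon beyond that point. Capitals mark bases in a kappaB match on either strand.
Nfkbie: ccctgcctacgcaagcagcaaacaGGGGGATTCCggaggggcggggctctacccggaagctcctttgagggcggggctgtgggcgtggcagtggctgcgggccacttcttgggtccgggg
Nfkbib: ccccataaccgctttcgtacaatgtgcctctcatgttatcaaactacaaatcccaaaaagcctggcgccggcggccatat
Nfkbia: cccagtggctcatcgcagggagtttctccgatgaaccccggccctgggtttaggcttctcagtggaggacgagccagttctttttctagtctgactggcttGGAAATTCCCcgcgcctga
Rel: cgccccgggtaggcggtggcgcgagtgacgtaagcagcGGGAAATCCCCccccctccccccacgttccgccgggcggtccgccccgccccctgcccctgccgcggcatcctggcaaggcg
The stretches are chr17:45555570-45555689 on the plus strand for Nfkbie, and chr7:28766655-28766734, chr12:55492658-55492777 and chr11:23770980-23771099 on the minus strand for Nfkbib, Nfkbia and Rel. The match starts 106 bases before the start site in Nfkbie, on the strand of the gene, and 29 bases before it in Nfkbia, on the other strand. In Rel 3 overlapping matches on both strands begin 92 or 91 bases before the start site. A match describes letters only, and its part in any difference between the libraries was not tested.

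The wider pathway was read from 97 other genes listed by role, of which 68 reached 1 FPKM in at least 1 library, 65 of them in both. On the log2(FPKM + 1) scale 46 of the 68 stood higher in Per2def and 22 lower, against 62% of all genes higher, with a median of 0.05, the same as over all genes (0.0059 for these genes under median of ratios scaling). One passed 1.5-fold, the chemokine gene Ccl3, a target of NF-kB, at 9.33 FPKM in Per2def and 15.7 FPKM in Per2wt (−0.69).

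The signalling proteins between receptor and inhibitor were present in both libraries and differed little. All 10 kinases and kinase partners reached 1 FPKM, 9 of them higher in Per2def, against 62% of all genes, with a median of 0.05 that does not exceed the 0.05 of all genes. Ikbkb, the kinase that marks the classical inhibitors for breakdown, stood at 12.1 FPKM in Per2def and 11.1 FPKM in Per2wt, and Tab2, an adaptor of the kinase above it, at 14.2 FPKM in Per2def and 13.9 FPKM in Per2wt. All 17 adaptors reached 1 FPKM, 1 of them only in Per2def, and 13 stood higher in Per2def (76.5%) with a median of 0.03. Irak1, a kinase that relays interleukin 1 and Toll-like receptor signals, was the most abundant of them, at 17.97 FPKM in Per2def and 17.5 FPKM in Per2wt. Tradd, which binds the tumour necrosis factor receptor, stood at 8.64 FPKM in Per2def and 8.55 FPKM in Per2wt.

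The ubiquitin editors, the group in which Tnfaip3 acts, had a median of 0.13 over 11 genes, 8 of them (72.7%) higher in Per2def, against 62% of all genes. Rbck1, a subunit of the complex that builds linear ubiquitin chains, stood at 28.5 FPKM in Per2def and 25.1 FPKM in Per2wt. Tax1bp1, an adaptor through which A20 works, stood at 28.0 FPKM in Per2def and 26.7 FPKM in Per2wt. Tnip1, an A20-binding protein named here after its value was seen, stood at 8.33 FPKM in Per2def and 6.40 FPKM in Per2wt (0.33), the widest difference of the group. Tax1bp1 and Tnip1 stood well above Tnfaip3 itself.

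Of the 2 other nuclear IkB genes, both stood lower in Per2def, against 38% of all genes. Nfkbid was at 3.14 FPKM in Per2def and 4.07 FPKM in Per2wt (−0.29), and Bcl3, which partners p50 and p52, at 1.68 FPKM in Per2def and 1.82 FPKM in Per2wt (−0.07). Nfkbiz, the nuclear inhibitor among the members, stood at 0.03 on the same scale.

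Receptors and ligands were sparser. Of 15 receptors 8 reached 1 FPKM, 5 of them (62.5%) higher in Per2def, near the 62% of all genes. They were led in level by Tnfrsf1a, the main tumour necrosis factor receptor, at 11.99 FPKM in Per2def and 13.3 FPKM in Per2wt, and by Ltbr, a receptor of the alternative pathway, at 6.70 FPKM in Per2def and 6.02 FPKM in Per2wt. Of 9 ligands 3 reached 1 FPKM, all 3 lower in Per2def, against 38% of all genes. Of these Tnf reached 1 FPKM only in Per2wt, so its direction was set by the floor. Ltb, a ligand of Ltbr, stood at 13.3 FPKM in Per2def and 14.5 FPKM in Per2wt (−0.11), and Il18 at 2.33 FPKM in Per2def and 3.03 FPKM in Per2wt (−0.27). Tnf was at 0.901 FPKM in Per2def and 1.11 FPKM in Per2wt, a value named outside the rule.

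Of 33 target genes 17 reached 1 FPKM, 1 of them only in Per2wt. Of these 17 genes 11 stood higher and 6 lower in Per2def, with a median of 0.09. The higher share of 64.7% is near the 62% of all genes. Marcksl1, the most abundant, stood at 32.4 FPKM in Per2def and 30.1 FPKM in Per2wt. Ninj1, which encodes a protein that breaks the membrane of dying cells, stood at 15.1 FPKM in Per2def and 20.6 FPKM in Per2wt (−0.42). The widest difference upward among the 17 was that of Tnfaip2, named after its value was seen. It stood at 17.1 FPKM in Per2def and 12.1 FPKM in Per2wt (0.46). Cxcl1, Il6 and Csf2, targets strongly induced in activated cells, were listed at 0 in both libraries.

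**Figure D4:**
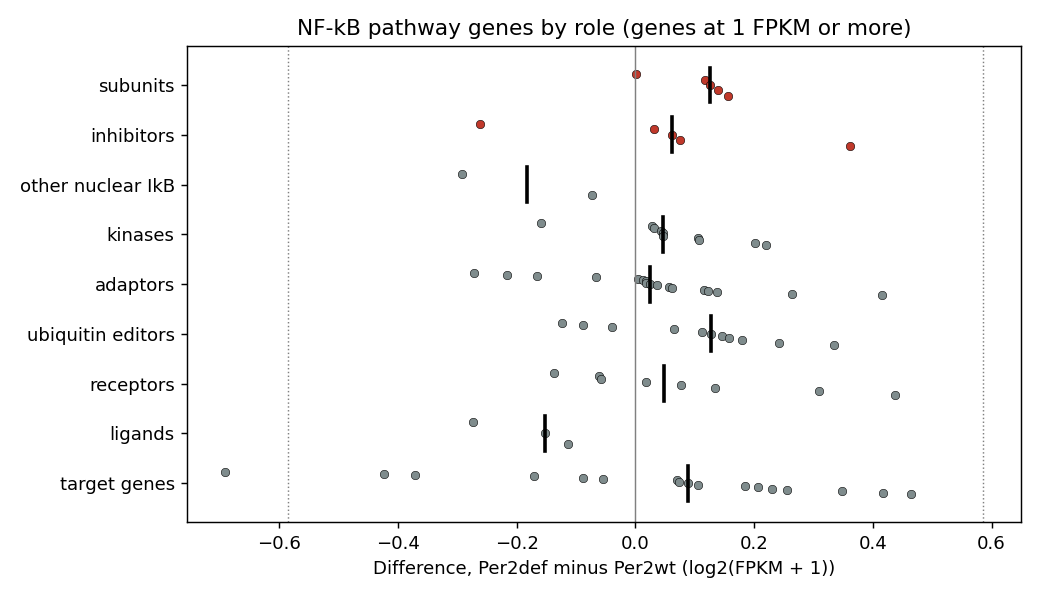
Difference in log2(FPKM + 1), Per2def minus Per2wt, of NF-kB pathway genes that reached 1 FPKM in either library, by role. Each point is a gene, red for the members and grey for the others, black bars mark group medians and dotted lines mark 1.5-fold. All points but Ccl3, at −0.69, lie within the dotted lines, and the subunit median is 0.13.

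Markers of other cell types and fast-response genes were read in the same libraries. Each count of higher or lower genes below stands against 62% higher and 38% lower among all 11121 genes. Counts from a few markers say little beside that share. A marker at 1 FPKM in only 1 library is higher there through the floor itself. Of 14 neutrophil markers 13 reached 1 FPKM, 12 of them higher in Per2def, and the list summed to 1018 FPKM in Per2def and 531 FPKM in Per2wt, with Retnlg listed at 0 in Per2def. Of 9 T cell markers found 6 reached 1 FPKM, 5 of them higher, of which 2 reached it only in Per2def. The T cell list summed to 22.5 FPKM in Per2def and 17.1 FPKM in Per2wt. Of 9 natural killer and innate lymphoid markers 3 reached 1 FPKM, all 3 higher, of which 1 reached it only in Per2def. That list summed to 8.78 FPKM in Per2def and 4.73 FPKM in Per2wt. The monocyte and macrophage list summed to 72.8 FPKM in Per2def and 56.95 FPKM in Per2wt, with 5 of 6 markers at 1 FPKM higher, and the mast cell and basophil list to 9.20 FPKM in Per2def and 5.82 FPKM in Per2wt, with 2 of 2 higher. Erythroid markers split, 5 higher and 5 lower of 10 at 1 FPKM, and 2 of the lower reached it only in Per2wt. They summed to 508 FPKM in Per2def and 573 FPKM in Per2wt. Among them Hba-a1 stood at 115 FPKM in Per2def and 193 FPKM in Per2wt, and Car1 at 294 FPKM in Per2def and 177 FPKM in Per2wt. The dendritic list summed to 57.6 FPKM in Per2def and 57.7 FPKM in Per2wt, the megakaryocyte and platelet list to 36.2 FPKM in Per2def and 38.2 FPKM in Per2wt, and the B cell list to 6.55 FPKM in Per2def and 6.94 FPKM in Per2wt with Igll1 listed at 0 in both. The endothelial list summed to 16.5 FPKM in Per2def and 14.4 FPKM in Per2wt, and the stromal list to 6.64 FPKM in Per2def and 5.33 FPKM in Per2wt with Pdgfra listed at 0 in both. Of 19 immediate early genes 16 reached 1 FPKM, 15 of them lower in Per2def, against 38% of all genes. The median of the 16 was −0.32, and the list summed to 305 FPKM in Per2def and 383 FPKM in Per2wt. In bulk RNA, fewer cells of a type and less RNA per cell cannot be told apart. The part of these lists in the differences of Nfkbie, Nfkbib and the other members was not tested.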

How the data were processed

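Poly(A) RNA of 2 samples was made into strand-marking libraries, per the labels' protocols, and grouped by the genotype label. The authors deposited FPKM per gene symbol, per the file headers. CASAVA 1.8, TopHat, Bowtie2, Cufflinks and the builds GRCm38 and mm10 are named, per the submitters' processing notes. Other versions, the annotation, any filters and how strand was handled in counting are not stated there.

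Each file held 24487 rows. A total of 9 rows flagged by Cufflinks for too much data and 27 whose symbols had become dates were left out, and rows sharing a symbol were summed, which none of the members needed. Differences are log2(FPKM + 1), with a floor of 1 FPKM in at least 1 library for counts over genes and thresholds of 1.5-fold and 2-fold. Coordinates and overlaps came from GENCODE M21 by symbol, promoters from RefSeq (GRCm38.p6). Relative depth came from the most common FPKM ratio among 3232 genes above 0 and under 0.5 FPKM, in log2 bins of 0.005, of which 256 genes shared it. Python 3.11.15, numpy 2.4.6 and pandas 2.3.3 were used. Median of ratios scaling and 2-fold calls were tested on simulated data, with large changes set only in genes well above the floor. That simulation cannot speak for small differences or for the low members, and the other scalings were not simulated.

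No test fits 1 library per genotype. The members and lists were chosen with earlier results of these data known. Genes were named by rule: Per2, the 10 members, pathway genes past 1.5-fold, and the 2 most abundant genes of each role. Tnip1, Tnf, Tnfaip2, Hlf, Cd48, Flt3, the pair of Nfkbie and Nfkbib, and the genes listed at 0 or under 1 FPKM were named after their values were seen. Of the marker symbols Adgre1 and Trac were not matched.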

Additional observations from a re-analysis of the deposited data

How the results depend on the processing

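Alternatives were pseudocounts of 0.5 and 0.1 FPKM, 3 other scalings, the highest row per symbol, no filter, a floor of 5 FPKM and a 1.5-fold threshold. Differences of Nfkbie, Nfkbib, Nfkbia, Nfkb1, Nfkb2, Rel and Tnfaip3 kept their sign and moved by at most 0.1 under the alternatives that gave one, but for small differences that is a large part: under median of ratios scaling Nfkbia moved to 0.011, Nfkb1 to 0.065 and Tnfaip3 to 0.042. Rela turned to −0.0497 under median of ratios, −0.00536 under a fixed total and −0.0324 under upper quartile scaling, and Nfkbiz to −0.00909 under median of ratios. In that order, these scalings lower every Per2def value by a common factor of 1.039, 1.005 and 1.025. Each factor exceeds the Rela ratio of 1.001, and only that of median of ratios exceeds the Nfkbiz ratio of 1.030. The count of lower members was 3, 2 and 2 in the same order. With a floor of 5 FPKM 3 members were left (Nfkb1, Rela and Nfkbia), 3 higher and 0 lower. Relb moved to 0.25 with a pseudocount of 0.1 FPKM. Over all genes 139 passed 2-fold upward and 111 downward in Per2def, 217 passed it upward with a pseudocount of 0.1 FPKM, and at 1.5-fold 290 passed upward and 189 downward. The share of genes higher was 43.6% without a filter, where genes at 0 in both libraries count as not higher. No paired analysis was possible because there is 1 library per genotype, and no library could be left out. Unknown absolute depth limits the low members most, Relb and Tnfaip3 above all.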
